A study of Arabidopsis thaliana with 12 samples.

Results

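HHO1 (AT3G25790), HHO2 (AT1G68670) and HHO3 (AT1G25550) are related Arabidopsis genes for transcription factors of the GARP type, a plant class with a MYB-like DNA-binding domain. They were taken by locus, each through the probe set with the highest mean, and make 3 of the 13355 genes that a single-gene probe set names on the array. Each of the 3 has 1 such probe set (257645_at, 262284_at and 255734_at). The measurements are single-channel Affymetrix array values from whole roots of Arabidopsis thaliana seedlings, in 12 samples. The 4 groups of 3 samples were wild type (Col-0) with 5 mM KCl, wild type with 5 mM KNO3, the tga1/tga4 double mutant with 5 mM KCl, and the same mutant with 5 mM KNO3. Each salt was given for 2 h from the start of the light period on day 15, so that KCl is the control for potassium and salt. All 4 groups had grown for 14 days in hydroponic culture with ammonium succinate (0.5 mM) as the only nitrogen source and sucrose (3 mM), under 16 h of light and 8 h of dark at 22 °C. Nitrate was therefore given to roots that had been supplied with ammonium. TGA1 and TGA4 are bZIP transcription factors, and the sources used here do not give the alleles of the mutant. The samples numbered 1, 2 and 3 are called independent biological replicates, with no word on what separated them. The p-values therefore reflect how far such samples vary, and some of that may be technical.

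HHO1, HHO2 and HHO3 belong to the HRS1/HHO family and are also called NIGT1 proteins. They are known as repressors that nitrate itself induces through NIN-like proteins, the main nitrate-sensing transcription factors. Their known targets include genes of high-affinity nitrate uptake, genes of the phosphate starvation response, and the HHO genes themselves, so that they act as a brake on the response and link nitrate to phosphate supply. In roots, HRS1 and its closest relative HHO1 are known to slow primary root growth when nitrate is present and phosphate is short, and HHO2 is known for a part in phosphate balance and lateral root formation. The design asks how these genes respond to nitrate in roots and whether that response needs TGA1 and TGA4.

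All 3 HHO genes rose strongly with nitrate, and they did so in wild type and in the double mutant. HHO2 and HHO3 rose by almost equal amounts. Their spread between samples was smaller than that of HHO1 with KNO3 and larger with KCl. HHO1 started close to the level of bacterial control probes and rose by very different amounts in different samples. Those amounts had the same order by sample number in wild type and mutant, and were larger in the mutant for every number. No difference between genotypes passed the limma test for any member under either salt.

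HHO2, the gene linked with phosphate balance, stood at 1.88, 1.17 and 2.09 in the wild-type KCl samples numbered 1, 2 and 3 (log2 probe set value). With KNO3 the values were 5.79, 6.09 and 5.26. The lowest KNO3 sample thus lay far above the highest KCl sample. In the mutant the values were 2.01, 1.70 and 1.92 with KCl and 5.70, 5.99 and 5.45 with KNO3, again without overlap. The increase was 4.0 ± 0.26 in Col-0 and 3.84 ± 0.26 in the double mutant (log2 change ± SE, n = 3 per group), 16.0-fold and 14.3-fold (adjusted p = 1.92e-06 and 2.58e-06, limma with Benjamini-Hochberg adjustment over 22746 probe sets).

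HHO3, another member of the same repressor family, stood at 3.30, 2.4 and 2.66 in wild type with KCl. With KNO3 it stood at 6.71, 6.83 and 6.25. In the mutant it stood at 3.14, 3.17 and 2.67 with KCl and at 7.14, 6.87 and 6.51 with KNO3. The salts did not overlap in either genotype. The increases were 3.81 ± 0.25 and 3.84 ± 0.25 in wild type and mutant, 14.0-fold and 14.4-fold (limma adjusted p = 2.35e-06 in both). Values of different probe sets depend on their probes, so the levels of the 3 genes are not ranked against each other.

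HHO1, the closest relative of HRS1, was near the bottom of the scale without nitrate. Its KCl values were 0.81, 0.67 and 0.90 in wild type and 0.67, 0.84 and 0.59 in the mutant. The bacterial trpn control probe sets, for a transcript that plants do not make, ran from 0.18 to 0.72 over the same 12 samples, which overlaps with the HHO1 range. HHO1 lay above the highest trpn probe set of the same sample in 5 of the 6 KCl samples and below it in the mutant sample numbered 3 (0.59 against 0.72). The KCl level is thus close to background, and the fold of the increase is uncertain. With KNO3 it stood at 3.50, 2.52 and 5.93 in wild type and 4.34, 2.79 and 6.20 in the mutant. Every KNO3 value lay above every KCl value, by 1.72 to 5.5 over the KCl mean of the same genotype.

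For HHO1 the mean increase was 3.18 ± 0.84 in Col-0 and 3.74 ± 0.84 in the double mutant (log2 change ± SE, n = 3 per group), with limma adjusted p of 0.0487 and 0.0224. The SE pools the spread of all 4 groups. The SD was 0.12 and 0.13 with KCl, near background, and 1.76 and 1.71 with KNO3, in wild type and mutant. The pooled spread is thus below that of the KNO3 samples. The wild-type call was lost without any 1 of 9 samples. The adjusted p was 0.117, 0.137 and 0.123 without wild type KCl replicate 1, 2 or 3, and 0.0998 and 0.156 without wild type KNO3 replicate 1 or 3. It was 0.0619, 0.0702 and 0.0665 without tga1 tga4 KCl replicate 1, 2 or 3, and 0.0744 without tga1 tga4 KNO3 replicate 1. The mutant call was lost without any 1 of 5 mutant samples, with adjusted p of 0.0616, 0.0574 and 0.0759 without KCl replicate 1, 2 or 3 and 0.0735 and 0.0666 without KNO3 replicate 1 or 3. Without the samples numbered 3 of all groups, an alternative chosen after seeing the data, the increases were 2.26 in wild type (adjusted p = 0.0504) and 2.81 in the mutant (adjusted p = 0.0213). Averaged over both genotypes, the increase of 3.46 ± 0.59 (limma adjusted p = 0.00225, 6 samples per salt) remained called under every alternative tried, with adjusted p from 0.000501 to 0.0106. Same-numbered KNO3 samples of both genotypes differed by 0.84, 0.27 and 0.27, so the 6 samples per salt are not 6 independent ones. The SE of 0.59 does not allow for this and may be too small.

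The calls are read against the whole array. In wild type, 3.32% of the 22746 probe sets were called higher with nitrate, and in the mutant 3.17%. All 3 members were among them in both genotypes. Groups that did not overlap, with KNO3 above KCl, were found in 9.62% of probe sets in wild type and 9.86% in the mutant, and again the 3 members were among them. For the average response 5.82% were called higher, and 3.86% had all 6 KNO3 samples above all 6 KCl samples, as the 3 members had. By size of the change in wild type, HHO2, HHO3 and HHO1 ranked 26, 30 and 54 among all probe sets, and 33, 32 and 36 in the mutant. Among genes with a single-gene probe set they ranked 9, 13 and 25 of 13355 in wild type. The rank of HHO1 is loose, since its change ran from 2.21 (without wild type KNO3 replicate 3) to 3.92 (without wild type KNO3 replicate 2). The genes ranked next to HHO1 were AT4G39780, an AP2/ERF-type transcription factor gene, at 3.20, and AT5G09800 at 3.16. Next to HHO2 stood AT5G41670, for a 6-phosphogluconate dehydrogenase, at 4.28 and AT1G73600, for a phosphoethanolamine methyltransferase, at 3.98. HHO3 lay between AT3G47980 at 3.85 and AT4G36010 at 3.79.

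Within each sample, the position of the HHO genes among all probe sets moved in the same way. With KCl, HHO1 exceeded 9.36% to 28.8% of probe sets, and with KNO3 51.6% to 90.4%. HHO2 exceeded 34.6% to 47.5% with KCl and 83.1% to 89.6% with KNO3. HHO3 exceeded 50.5% to 59.6% with KCl and 91.0% to 95.2% with KNO3. These percentiles depend on each gene's probes as well, so they are read between salts for 1 gene and not between genes. In whole roots, more cells of a type that expresses a gene and more RNA per cell cannot be told apart.

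As to the series as a whole, sample medians lay between 2.21 and 2.41, and no 2 of the 12 samples were identical. Of 10 listed root genes 1 was measured under a name, which is too few to check the label root. This was EXPA7, an expansin of root hair cells, at 2.63 to 4.58 over the 12 samples. It stood at 2.63 to 2.77 with KCl and 4.21 to 4.58 with KNO3 in wild type, and at 2.92 to 4.47 and 4.17 to 4.58 in the mutant. It rose by 1.69 ± 0.30 with nitrate in wild type (limma adjusted p = 0.00547, but 0.0905 without the samples numbered 3) and had a change of 0.54 ± 0.30 in the mutant (adjusted p = 0.456). Its part in the HHO increases was not tested. The 10 listed genes of green tissue were not analysed here, so shoot material was not checked.

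**Figure D1:**
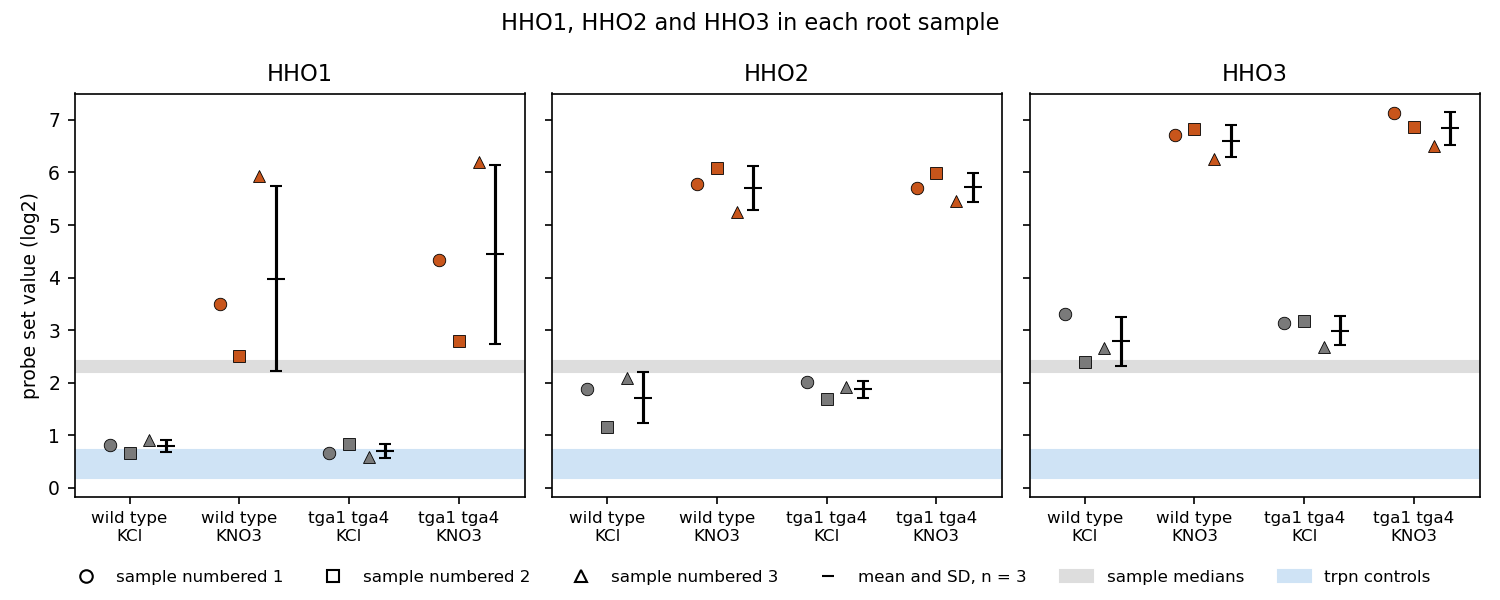
Probe set value (log2) of HHO1, HHO2 and HHO3 in each of the 12 root samples, by group; marker shape gives the sample number, and bars give mean and SD (n = 3). The grey band spans the sample medians (2.21 to 2.41) and the blue band the trpn controls (0.18 to 0.72); HHO1 with KNO3 spreads from 2.52 to 6.20, while HHO2 and HHO3 with KNO3 stay within 5.26 to 7.14.

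The spread of HHO1 under nitrate followed the sample numbers more than the genotype. In both genotypes the KNO3 sample numbered 3 was the highest, the sample numbered 1 was in the middle and the sample numbered 2 was the lowest. The mutant was above the same-numbered wild-type sample by 0.84, 0.27 and 0.27 for numbers 1, 2 and 3. The wild-type samples alone ran from 2.52 to 5.93. Relative to the KCl mean, HHO1 stood 2.7, 1.72 and 5.13 higher in the wild-type samples numbered 1, 2 and 3, and 3.64, 2.09 and 5.5 higher in the mutant. The residual SD of HHO1 around its group means was 1.23, the 28th highest of the 22746 probe sets, against a median of 0.206. HHO1 had no such order with KCl, where all 6 values lay between 0.59 and 0.90, close to background.

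HHO2 and HHO3 ran the other way under nitrate. The KNO3 sample numbered 3, highest for HHO1, was the lowest of its group for HHO2 and for HHO3 in both genotypes. For HHO2 the sample numbered 2, lowest for HHO1, was the highest in both genotypes. For HHO3 it was the highest in wild type, and number 1 was the highest in the mutant. The range over numbers was smaller than for HHO1, from 5.26 to 6.09 for HHO2 in wild type. Their residual SDs were 0.357 and 0.350, below that of HHO1 and above the median of all probe sets.

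These orders can be set beside those of other probe sets. Number 3 was the highest KNO3 sample in both genotypes for 22.1% of all probe sets and for 31.1% of the 1323 called higher for the average nitrate response. The full HHO1 order of 3, then 1, then 2 in both genotypes was shared by 15.2% of those 1323 and by 8.78% of all. Number 3 was the lowest in both genotypes, as for HHO2 and HHO3, in 16.4% of the 1323 and 18.9% of all. The KNO3 samples numbered 3 correlated between genotypes at 0.73 in their deviations from the group means across the brighter 11373 probe sets, which are not independent replicates, and those numbered 1 and 2 at 0.28 and 0.64. What the numbers share beyond being separate replicates is not stated, and its part in the HHO1 spread was not tested.

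**Figure D2:**
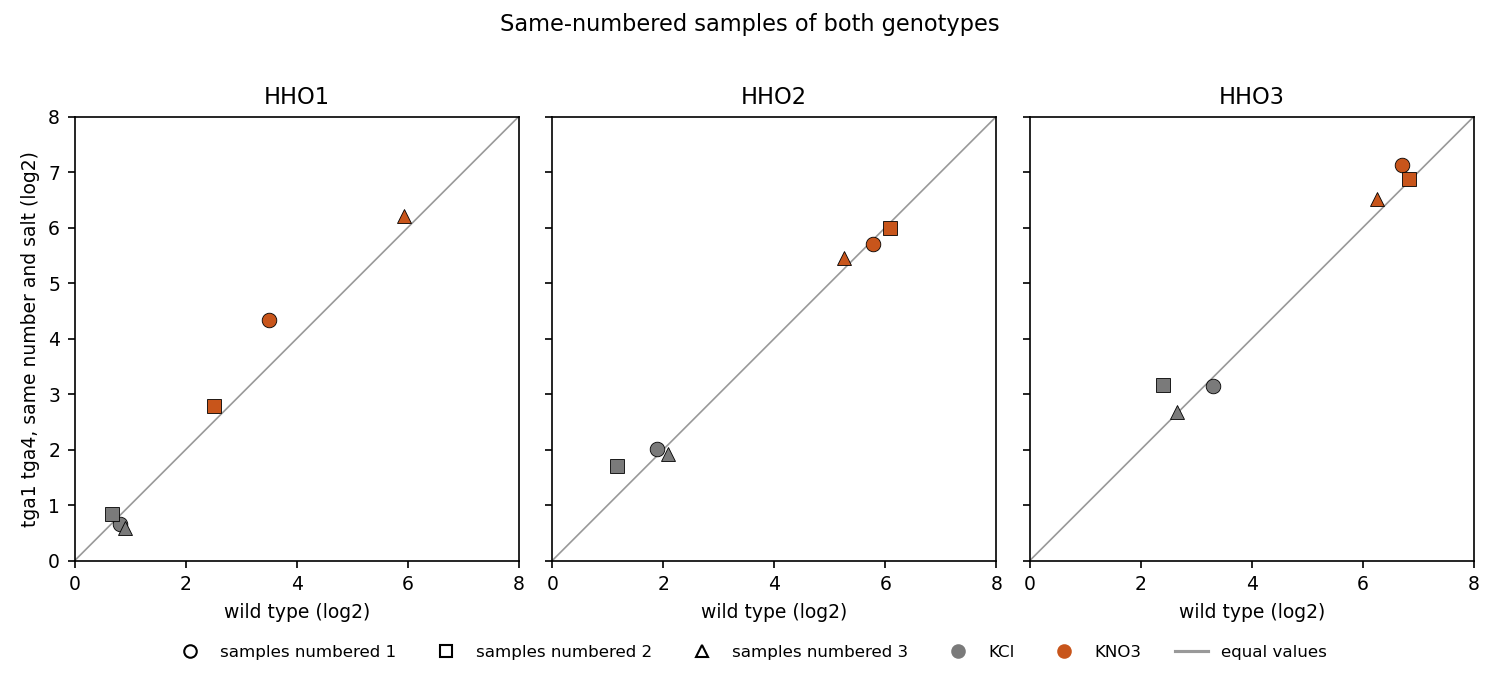
Value in the mutant (vertical axis, log2) against the wild-type sample of the same salt and number (horizontal axis, log2) for HHO1, HHO2 and HHO3; grey marks KCl, orange KNO3, and the line marks equal values. The HHO1 KNO3 points spread along the line from 2.52 to 5.93 in wild type, with number 3 highest, whereas for HHO2 and HHO3 number 3 is the lowest KNO3 point.

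No HHO gene was called different between mutant and wild type. With KCl, HHO2 and HHO3 were 0.16 and 0.21 higher in the mutant and HHO1 stood at -0.097 (difference in log2, mutant minus wild type). With KNO3 the differences were 0.46 for HHO1, 0.0053 for HHO2 and 0.24 for HHO3. The 95% confidence intervals under KNO3 ran from -1.37 to 2.29 for HHO1, from -0.56 to 0.57 for HHO2 and from -0.31 to 0.79 for HHO3. Under KCl they ran from -1.93 to 1.73, from -0.40 to 0.73 and from -0.35 to 0.76. These intervals come from the fit that does not pair samples by number, so they hold the spread between numbers. Their SE also pools all 4 groups. For HHO1 the SD was 0.12 and 0.13 with KCl and 1.76 and 1.71 with KNO3, in wild type and mutant. The width of the HHO1 interval under KCl thus comes mostly from the KNO3 samples. For HHO1 the same-numbered differences were 0.84, 0.27 and 0.27 with KNO3 and -0.15, 0.17 and -0.32 with KCl. In every comparison of the genotypes the groups overlapped, against 9.14% of probe sets under KCl and 6.78% under KNO3 whose groups did not, and all adjusted p were 0.9998 (limma). Few probe sets passed at all, 0.0176% under KCl and 0.0132% under KNO3, so the lack of a call separates the HHO genes from few others.

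The nitrate responses were compared directly through the interaction (mutant response less wild-type response). It was 0.56 for HHO1, with a 95% confidence interval from -2.03 to 3.15. For HHO2 it was -0.16 with an interval from -0.95 to 0.64, and for HHO3 0.035 with an interval from -0.74 to 0.82. None passed (adjusted p = 0.9993, limma), against 0.0044% of all probe sets. The intervals for HHO2 and HHO3 thus leave out losses larger than their lower ends of -0.95 and -0.74, set against wild-type responses of 4.0 and 3.81, and include 0. For HHO1 the lower end of -2.03 stands against a wild-type response of 3.18. The sample numbers were taken to pair the genotypes within a salt, from deviations in these same data. With number within salt as a fixed replicate block the HHO1 interaction was 0.56 with an SE of 0.213 (limma adjusted p = 0.706). The same-numbered differences behind it, mutant minus wild type, were 0.84, 0.27 and 0.27 with KNO3 and -0.15, 0.17 and -0.32 with KCl. The wide interval without the block thus holds the spread between numbers, which the paired comparison takes out. In the paired comparison the HHO1 estimate exceeded its SE, but the KCl differences within it are between values close to background. That the interaction did not pass after adjustment over 22746 probe sets does not show that the responses were equal.

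Put in order, the 4 group means of HHO1 were 0.70 (mutant KCl), 0.80 (wild type KCl), 3.98 (wild type KNO3) and 4.44 (mutant KNO3). Those of HHO2 were 1.71 (wild type KCl), 1.87 (mutant KCl), 5.71 (wild type KNO3) and 5.71 (mutant KNO3). Those of HHO3 were 2.79, 2.99, 6.60 and 6.84 in the same order. For all 3 genes the step between the second and the third group, from KCl to KNO3, exceeded the residual SD around the group means. This SD was 1.23, 0.357 and 0.350 for HHO1, HHO2 and HHO3. For HHO1 the wild-type KNO3 samples alone ran from 2.52 to 5.93, a range wider than its step. Neighbours with the same salt differed by less than this SD, which takes no account of the sample numbers. By same-numbered samples, HHO1 with KNO3 was higher in the mutant by 0.84, 0.27 and 0.27.

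The other measured genes of the family were not called for the nitrate response. Of its 7 genes 5 had a named probe set, and HRS1 and HHO4 were not analysed here. HHO5 (AT4G37180) stood at 2.96, 2.38 and 2.54 with KCl and 2.48, 3.42 and 2.36 with KNO3 in wild type, a change of 0.13 ± 0.30 with overlapping groups. In the mutant its change was 0.46 ± 0.30. HHO6 (AT1G49560) stood at 4.31, 3.97 and 4.09 with KCl and 3.75, 3.90 and 3.54 with KNO3 in wild type. All 3 KNO3 values lay below the KCl values, as for 11% of all probe sets, but the change of -0.40 ± 0.21 did not pass, and in the mutant it was -0.10 ± 0.21. Adjusted p for these were 0.905 and 0.550 for HHO5 and 0.418 and 0.909 for HHO6 (limma). The median change over these 5 genes, 3.18 in wild type and 3.74 in the mutant, is the value of HHO1 itself, with 2 genes above it and the uncalled HHO5 and HHO6 below it. Over all probe sets the median was -0.014 and -0.012.

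**Figure D3:**
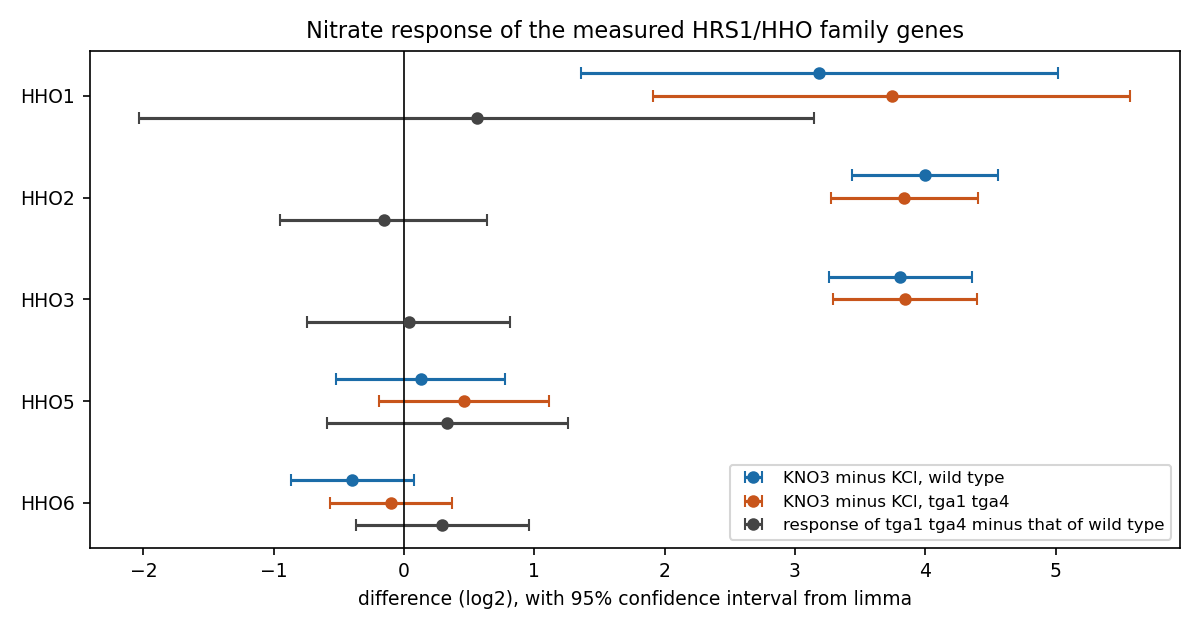
Nitrate response (log2, KNO3 minus KCl) of each genotype, and the difference between both responses, for the 5 measured HRS1/HHO genes; points are estimates and bars 95% confidence intervals (limma, n = 3 per group). The intervals of HHO1, HHO2 and HHO3 lie above 0 for both responses, those of HHO5 and HHO6 include 0, and every interval of the difference includes 0. All intervals are from the fit that does not pair samples by number.

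Other GARP-type factors gave a mixed picture. Of 21 listed genes 3 were measured under a name, and 1 fell in each genotype. MYBC1 (AT2G40970), known from freezing tolerance, stood at 6.70, 6.78 and 6.43 with KCl and 4.07, 4.77 and 3.73 with KNO3 in wild type. It fell by 2.45 ± 0.28 there and by 2.26 ± 0.28 in the mutant (limma adjusted p = 0.000234 and 0.000454), opposite to the HHO genes, against a background of 2.19% and 1.95% of probe sets called lower. PHL2, a phosphate starvation regulator, had changes of -0.26 and -0.12, and ARR18, a response regulator of cytokinin signalling, of -0.16 and -0.13, and neither passed. The ARR18 values of 0.26 to 0.75 lay at the level of the trpn controls. The median over the 3 was -0.26 in wild type and -0.13 in the mutant.

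Few other genes of the pathway could be read. Of 20 other listed nitrate regulators 2 were measured under a name. AT4G32950 (CEPH), a protein phosphatase that acts on a high-affinity nitrate transporter, rose by 6.03 ± 0.32 in wild type and 5.83 ± 0.32 in the mutant (limma adjusted p = 3.09e-07 and 4.11e-07). NRG2 (AT3G60320), a regulator of nitrate signalling, had changes of -0.094 and 0.17 and did not pass. Of 7 genes of high-affinity nitrate uptake 1 was measured. This was NRT2.5, a known target of HHO repression, at 2.58, 4.06 and 3.72 with KCl and 3.14, 1.69 and 3.76 with KNO3 in wild type. Its changes of -0.59 ± 0.61 and -1.20 ± 0.61 did not pass (limma adjusted p = 0.740 and 0.393), and the groups overlapped in both genotypes. None of the 9 listed NIN-like protein genes and none of 21 phosphate starvation genes had a named single-gene probe set, and they were not analysed here.

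**Figure D4:**
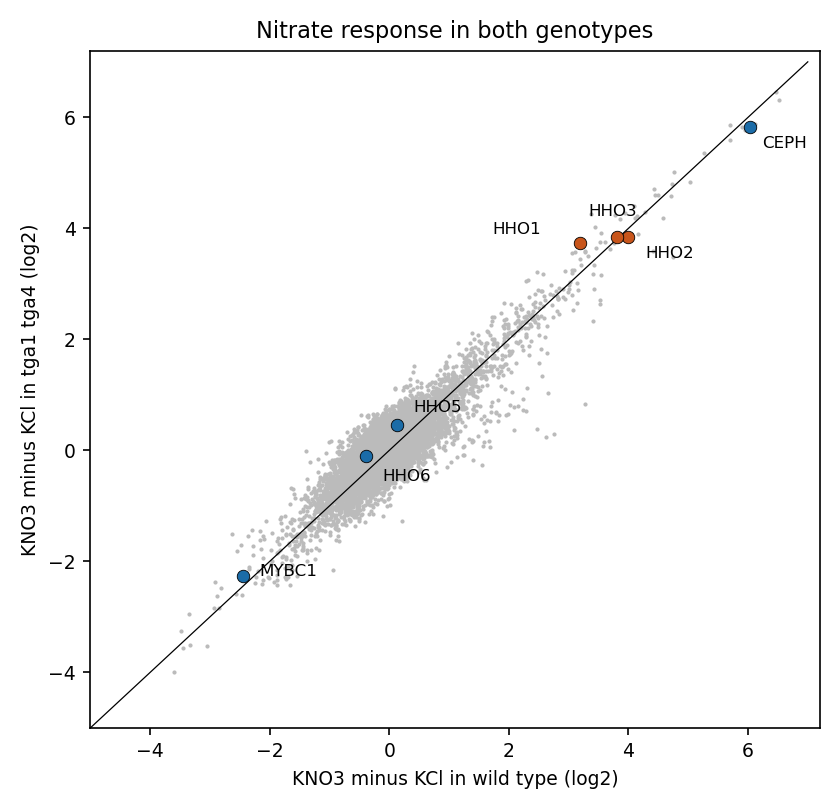
Change with nitrate in the mutant (vertical axis, log2) against wild type (horizontal axis, log2) for all 22746 probe sets (grey), with HHO1, HHO2 and HHO3 in orange and 4 other named genes in blue; the line marks equal changes. HHO2 and HHO3 lie close together near 3.8 to 4.0, HHO1 lies above the line at 3.18 and 3.74, and MYBC1 lies below 0 in both genotypes, at -2.45 and -2.26.

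Likeness of pattern was measured as the root mean square difference between 2 genes over the 12 samples, after each gene's own mean was subtracted (log2 units, smaller is more alike). By this measure HHO3 was the gene nearest to HHO2 of 13354 compared, at 0.28, and HHO2 was the 2nd nearest to HHO3. HHO1 was 1.25 from HHO2 and 1.19 from HHO3. The distance lay in the KNO3 samples. Between HHO1 and HHO2 it was 1.71 within those samples and 0.30 within the KCl samples, after the mean of each salt was subtracted. All 12 samples share the contrast of KCl with KNO3, so any strongly induced gene scores as near.

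HHO1 had its own neighbours. They were chosen for likeness over these same 12 samples, so their shared order and strong increase follow from the choice and are given as a description. The nearest were AT3G46880 at 0.54 and the cytochrome P450 gene CYP78A9 (AT3G61880) at 0.55. AT1G73600, AT4G39780 and AT5G06570, for a carboxylesterase-type hydrolase, followed at 0.72, 0.74 and 0.79. All 5 were highest in the KNO3 samples numbered 3 of both genotypes, and 4 of them had the full HHO1 order in both. The exception was AT1G73600, lowest in number 1 in wild type. CYP78A9 stood at 5.11, 4.12 and 5.92 with KNO3 in wild type and at 5.03, 4.12 and 5.99 in the mutant, so that its order was that of HHO1 over a smaller range. Its KCl values lay between 1.21 and 1.5. These 5 genes rose by 2.95 to 3.98 in wild type and by 2.73 to 3.86 in the mutant.

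HHO2 and HHO3 shared most of their neighbours, chosen in the same way and likewise given as a description. AT4G09620, of the mitochondrial transcription termination factor family, was the nearest to HHO3 at 0.23 and the 2nd nearest to HHO2 at 0.31. AT3G19030 and AT5G41670 were among the 5 nearest to both. AT5G62720, an HPP-family membrane protein gene, was near HHO2 only in this count, at 0.36, and AT1G67910 near HHO3, at 0.40. AT4G09620 stood at 5.85, 5.93 and 5.43 with KNO3 in wild type and 6.08, 6.25 and 5.67 in the mutant, lowest in number 3 in both. AT5G62720, AT3G19030 and AT1G67910 were also lowest in number 3 of both genotypes. AT5G41670 was not, with 10.5, 10.2 and 10.4 in wild type and 10.3, 10.3 and 10.4 in the mutant.

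**Figure D5:**
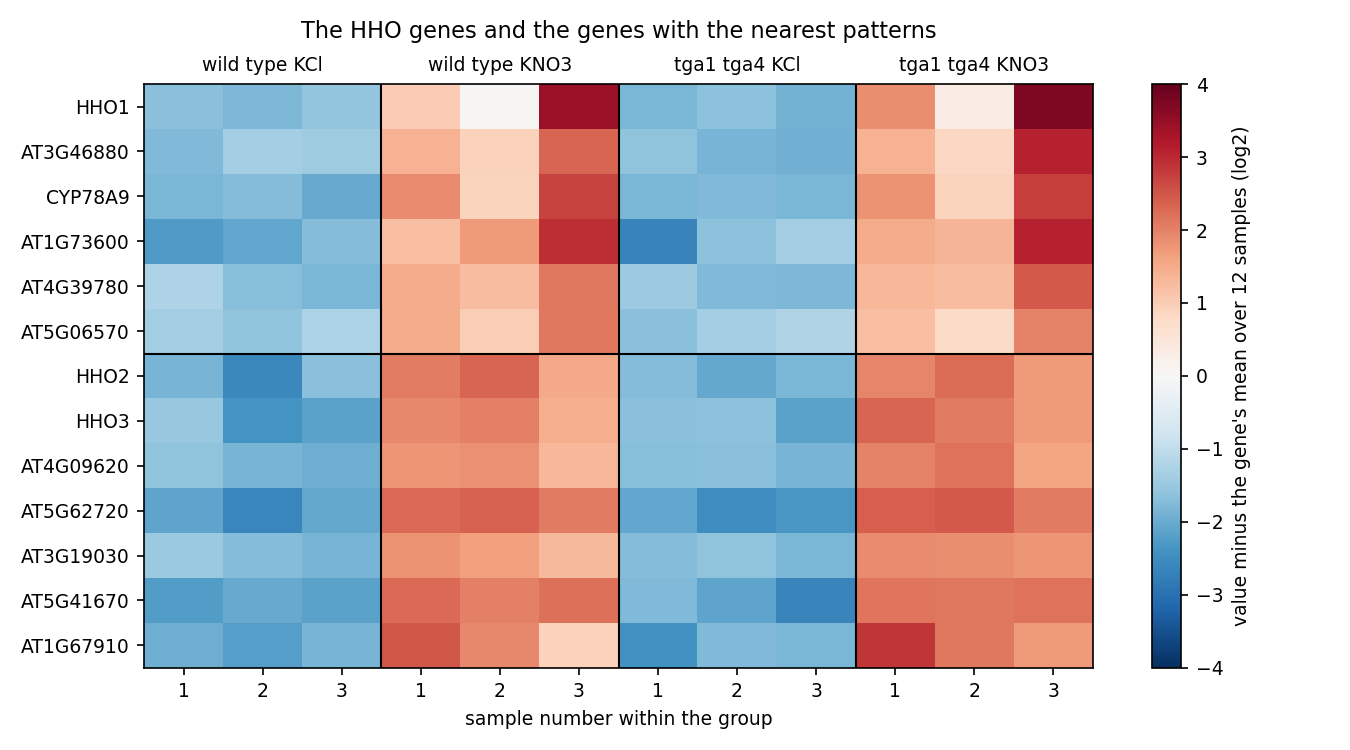
Value minus the gene's mean over the 12 samples (colour, log2) for HHO1 and its 5 nearest genes (above the line) and for HHO2, HHO3 and theirs (below the line), with samples in columns by group and number. In the KNO3 groups the genes above the line are darkest in number 3 of both genotypes. Those below the line are palest there, except AT5G41670.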

How the data were processed

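Root RNA from 12 samples was labelled with biotin and measured on Affymetrix arrays, per the labels' protocols. For each array the authors deposited log2 values, 1 per probe set. The sources used here do not name their background correction, normalization or summary method. The base was settled from the hybridisation controls, whose slope on log2 nominal concentration was 1.00. Of 22810 probe sets 64 controls were left out and 22746 tested. A gene table named 1 gene for 13513, several for 503 and none for 8730, and symbols follow TAIR10.1 in RefSeq. Depth has no meaning for arrays, and precision is limited by 3 samples a group.

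limma 3.58.1 (R 4.3.3) estimated the 4 group means from all 12 samples together, without an intensity trend. Tests were two-sided, adjusted by Benjamini-Hochberg over all 22746 with calls made below 0.05 whatever the fold. The fit was tested on simulated data. Intervals are at 95% from the moderated variance. Lists came from general knowledge, and members, lists and tests were chosen with earlier results of these data known. The named genes are the members, every measured family gene, called list genes with the highest and lowest of each list, the genes next to a member in rank and the 5 nearest in pattern.

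Within a salt, the deviations of wild-type and mutant samples with 1 number moved together, with correlations from 0.28 to 0.73 over the 6 pairs, so the numbers were taken to pair genotypes within a salt. Between salts within a genotype they ran from -0.14 to 0.23 and the numbers were not taken to pair. The alternatives were other scalings, moderation, filter, sample sets, weights and replicate blocks, and leaving out each sample. No member had another single-gene probe set to use instead.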

Additional observations from a re-analysis of the deposited data

How the results depend on the processing

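HHO2 and HHO3 kept their direction and their call for the nitrate response of wild type and mutant and for the average under every alternative tried, with adjusted p up to 0.000302 (limma), and HHO1 for the average. The wild-type response of HHO1 lost its call with quantile-normalized values (3.17, adjusted p = 0.0550), with intensity trend and robust moderation (3.18, adjusted p = 0.119), with only the 2 wild-type groups (3.18, adjusted p = 0.0582) and with samples numbered 1 and 2 only (2.26, adjusted p = 0.0504). The mutant response lost it with the trend (3.74, adjusted p = 0.0675). With 1 sample left out, the HHO1 change ran from 2.21 to 3.92 in wild type and from 2.86 to 4.57 in the mutant. Where a KCl sample of the mutant was left out, the wild-type change stayed at 3.18 and its SE rose from 0.837 to 0.869, 0.877 or 0.881. The cause of the other lost calls was not tested.

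With the replicate block as a fixed term for number, the HHO1 responses were 3.18 (SE 0.640, adjusted p = 0.0128) and 3.74 (adjusted p = 0.00511), and with a random block of number within salt the adjusted p were 0.0227 and 0.00897. The fixed term for number treats same-numbered samples of both salts as paired, which the numbers were not taken to be. The random block used 1 correlation, 0.28, for all probe sets. With number within salt as a fixed replicate block, the interaction of HHO1 was 0.56 with an SE of 0.213 in place of 1.18, and did not pass (adjusted p = 0.706). The block changed no call of a member.

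Genotype differences and interactions of the members passed under no alternative, and the smallest turned sign. HHO1 under KCl stood at 0.012 with samples numbered 1 and 2 only. HHO2 under KNO3 stood at -0.0021, -0.016, -0.040 and -0.090 with quantile normalization, median centring, array quality weights and samples numbered 1 and 2 only, and the HHO3 interaction at -0.055, -0.047, -0.066 and -0.072 in the same order. With 1 sample left out, the KCl difference of HHO2 ran from -0.11 to 0.35. The KNO3 differences ran from -0.42 to 1.44 for HHO1 and from -0.22 to 0.19 for HHO2. The interactions ran from -0.32 to 1.53, from -0.38 to 0.12 and from -0.22 to 0.23 for HHO1, HHO2 and HHO3. The wild-type changes of HHO5 and NRG2 ran from -0.21 to 0.32 and from -0.27 to 0.036, and the mutant change of HHO6 from -0.26 to 0.13.

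Counts of called probe sets moved as well. The wild-type count of 1253 was 829 with samples numbered 1 and 2 only and ran from 815 (without wild type KNO3 replicate 1) to 1326 with 1 sample left out. The mutant count of 1165 was 1822 with array quality weights and ran from 720 (without tga1 tga4 KNO3 replicate 1) to 1221. The 4 genotype calls under KCl became 2 with only those groups, 18 with number within salt as a fixed replicate block, 1 with samples numbered 1 and 2 only, and 2 to 18 with 1 sample left out. The 1 interaction call became 2 with median centring, the trend, the 3 replicate blocks or array quality weights, 0 with samples numbered 1 and 2 only, and 0 to 2 with 1 sample left out.

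Values near the trpn controls, as for HHO1 with KCl, limit what can be said of its fold.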
